A study of Mus musculus with 7 samples.

Results

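The AP-1 transcription factors of the Fos and Jun families were described in mouse brain RNA. All 7 genes, Fos, Fosb, Fosl1, Fosl2, Jun, Junb and Jund, were found by symbol among the 48526 genes of the deposited table. The family was chosen because Jund was low in 1 of the groups, so the differences of its members between groups are given as a description, with no test. The 7 libraries come from brains of mice of 24 months that carry 2 constructs, V1S and SV2; Venus, a fluorescent protein, is also named in the labels. Glucose is the label of the 4 on libraries, and Dox, an abbreviation used for doxycycline, that of the 3 off libraries, so the drug and the state of the constructs cannot be told apart. No strain, brain region or promoter of the constructs is named in the sources used here, nor whether each library is a separate animal. Errors and p-values therefore measure the spread between these samples, which may be technical.

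AP-1 is a dimer of basic leucine zipper (bZIP) proteins. Fos proteins pair with Jun proteins, whereas Jun proteins also pair with each other, and the dimers bind DNA at sites known as TRE and CRE. In neurons Fos, Fosb and Junb are classic immediate early genes, which are transcribed briefly after synaptic activity or growth factor signals. Jund is known for a steadier level in unstimulated cells.

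The coding stretches of the basic region, which contacts DNA, are shown because the members share this region but differ in how it is spelled. Each stretch is 24 codons long, 5′ to 3′, from GENCODE M21 transcripts (GRCm38), and capitals mark G or C at the third position of a codon.
Fos: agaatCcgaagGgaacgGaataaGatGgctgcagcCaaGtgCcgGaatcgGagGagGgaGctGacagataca
Fosl2: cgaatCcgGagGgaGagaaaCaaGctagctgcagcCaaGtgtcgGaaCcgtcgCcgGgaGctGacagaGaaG
Jun: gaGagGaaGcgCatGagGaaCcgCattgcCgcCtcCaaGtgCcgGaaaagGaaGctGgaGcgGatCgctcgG
Junb: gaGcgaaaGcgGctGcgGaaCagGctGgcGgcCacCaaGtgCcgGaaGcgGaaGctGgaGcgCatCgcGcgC
Jund: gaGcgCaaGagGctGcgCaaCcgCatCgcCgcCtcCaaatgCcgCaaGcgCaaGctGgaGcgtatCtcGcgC
Over these 72 bases Jund and Junb were identical at 58 and Jund and Jun at 55, whereas Jund and Fos were identical at 35. Of the 14 bases at which Jund and Junb differed, 9 lay at the third position of a codon. G or C stood at the third position in 22 of 24 codons in Jund, 23 in Junb and 21 in Jun, against 14 in Fos and 16 in Fosl2. Over the whole coding sequence the third position was G or C in 84.8% of Jund codons and in 68.2% of Fos codons.

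The Jun genes have no intron in their longest transcript, and the 4 Fos genes have 4 exons each. On GRCm38, Jund (ENSMUSG00000071076) lies on the plus strand of chromosome 8 at 70698949 to 70700616, with a single-exon transcript of 1668 bases and a GC content of 67.1%. That GC content was above that of 99.8% of the tested genes. Junb (ENSMUSG00000052837), on the minus strand of chromosome 8 at 84974484 to 84978718, has a transcript of 1809 bases and 62.6% GC. Jun (ENSMUSG00000052684) lies on the minus strand of chromosome 4 at 95049034 to 95052222, with 3189 bases and 55.5% GC. Fos (ENSMUSG00000021250) lies on the plus strand of chromosome 12 at 85473890 to 85477273, with 2108 bases and 51.9% GC. Fosb (ENSMUSG00000003545) lies on the minus strand of chromosome 7 at 19302696 to 19310051, with 3782 bases and 56.0% GC. Fosl2 (ENSMUSG00000029135), on the plus strand of chromosome 5 at 32135801 to 32157842, has the longest transcript, 6537 bases, with 53.1% GC. Fosl1 (ENSMUSG00000024912) lies on the plus strand of chromosome 19 at 5447547 to 5455946, with 1864 bases and 58.5% GC.

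On the opposite strand, 4 members are overlapped by another gene, and whether reads were counted by strand is not known. The antisense gene Gm11175 shares 919 bases with Jund, Junos shares 689 bases with the start of Jun, Prdx2 shares 351 bases with the end of Junb, and Ccdc85b shares 2767 bases with Fosl1. These lengths are overlaps of whole gene spans, introns included, and the overlap of the transcripts was not measured. Values of these members and of their partners are uncertain to the extent that reads of either gene were counted with the other. Mean deposited values over the 7 libraries were 6.30 for Gm11175, 5.41 for Junos, 12.56 for Prdx2, a peroxiredoxin gene, and 10.36 for Ccdc85b.

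Jund had the highest level of the family and Fosl1 the lowest. The deposited values are regularized logarithms (rlog), a log2 scale of normalized counts on which deviations from the mean of a gene are shrunken, so that differences of low genes are understated. For levels, log2 of the transcript length in kilobases was subtracted. On this per-kilobase log2 scale the mean level was 10.91 for Jund, 9.63 for Junb, 9.30 for Fos, 9.11 for Jun, 7.55 for Fosl2, 7.23 for Fosb and 1.07 for Fosl1. The 7 values of Jund lay between 10.70 and 11.17, above those of every other member. The ranges of Junb and Fos overlapped, as did those of Fos and Jun and those of Fosl2 and Fosb, so the order within each of these pairs is within the spread. The gap between Jun and Fosl2, 1.55, exceeded the spread of both.

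Jund, the member that led to the choice of the family, was lower in every on library than in every off library. Its rlog values were 11.47, 11.53, 11.44 and 11.52 in on replicates 1 to 4. They were 11.85, 11.85 and 11.90 in off replicates 1 to 3. The 4 on values spanned 0.0916 and the 3 off values 0.0575, so the gap between the groups was wider than the spread within either. The mean was 11.49 ± 0.04 (SD, n = 4) in on and 11.87 ± 0.03 (SD, n = 3) in off, a difference of -0.38 ± 0.04 (SE). On the rlog scale the on level was 76.9% of the off level. Of the 17896 genes with a mean of 3 or more, 20 had a lower difference than Jund. With any 1 library left out the difference lay between -0.39 and -0.36.

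**Figure D1:**
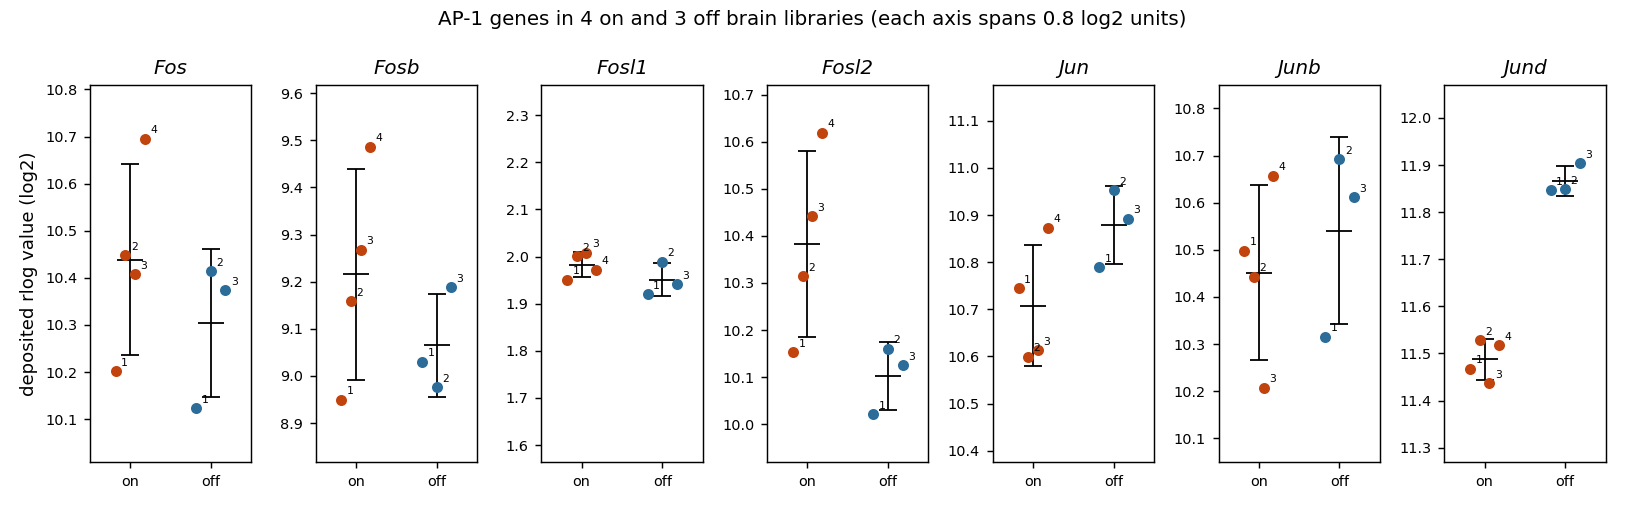
Deposited rlog values (log2) of the 7 AP-1 genes, 1 panel per gene, in 4 on libraries (red) and 3 off libraries (blue). Numbers are replicates, bars are the mean ± SD, and every axis spans 0.8 log2 units; the Jund panel alone shows a gap between red and blue points.

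The other Jun genes did not separate the groups. Jun, the partner of Fos in the classic AP-1 dimer, had values of 10.75, 10.60, 10.61 and 10.87 in on replicates 1 to 4 and of 10.79, 10.95 and 10.89 in off replicates 1 to 3. On replicate 4 lay above off replicate 1, so the groups overlapped, and the difference was -0.17 ± 0.06 (SE). Junb, an immediate early gene that also restrains Jun activity, had values of 10.50, 10.44, 10.21 and 10.66 in on and of 10.32, 10.69 and 10.61 in off. The lowest and the second highest of these 7 values were both on libraries, and the difference was -0.09 ± 0.09 (SE).

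Fos genes had higher means in on, with groups that overlapped. Fos had values of 10.20, 10.45, 10.41 and 10.70 in on replicates 1 to 4 and of 10.12, 10.41 and 10.37 in off replicates 1 to 3, a difference of 0.13 ± 0.09 (SE). On replicate 4 was highest and off replicate 1 lowest. Fosb, whose splice forms cannot be told apart in gene-level values, had values of 8.95, 9.16, 9.27 and 9.49 in on and of 9.03, 8.98 and 9.19 in off, a difference of 0.15 ± 0.10 (SE). On replicate 1 was below all 3 off libraries, and on replicates 3 and 4 were above them. Without on replicate 4 the difference of Fos was 0.05 and that of Fosb 0.06, and without off replicate 1 that of Fos was 0.04. Without on replicate 1 they were 0.21 and 0.24.

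Fosl2, which encodes Fra-2, came closest to a separation on the high side. Its values were 10.15, 10.31, 10.44 and 10.62 in on replicates 1 to 4 and 10.02, 10.16 and 10.13 in off replicates 1 to 3. On replicate 1 lay just under off replicate 2, so the groups overlapped by 1 library. The difference was 0.28 ± 0.08 (SE), with 52 of the 17896 genes higher. Fosl1, which encodes Fra-1, had values from 1.95 to 2.01 in on and from 1.92 to 1.99 in off. Its mean was under 3, the minimum used for tests, and it entered none.

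By the threshold used below for other genes (adjusted p under 0.05 in limma), 1 of the 6 members above that minimum, Jund, counted as called, on the lower side; among all tested genes 2.60% were called, 1.79% lower and 0.816% higher. Of these 6 members, 1 had on libraries below all off libraries, against 8.09% of tested genes, and none had them above, against 7.13%. These counts are no test and nothing is read from them, because Jund was chosen on this contrast. The 6 members were split into 3 with positive and 3 with negative differences, and all 3 Jun genes were on the negative side.

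The differences followed the base composition and length of the transcripts in these libraries. Among the 3566 genes richest in GC (quintile 5, from 55.4% up), the median difference was -0.05, and 5.30% were called lower. Among the 1007 genes that were both in this quintile and in the shortest one, up to 1761 bases, the median was -0.08 and 9.83% were called lower, against 1.79% of all tested genes. Jund is in both quintiles, and 11 of those 1007 genes had a lower difference than Jund. Fosl2 is in the longest quintile, whose median difference was 0.06.

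**Figure D2:**
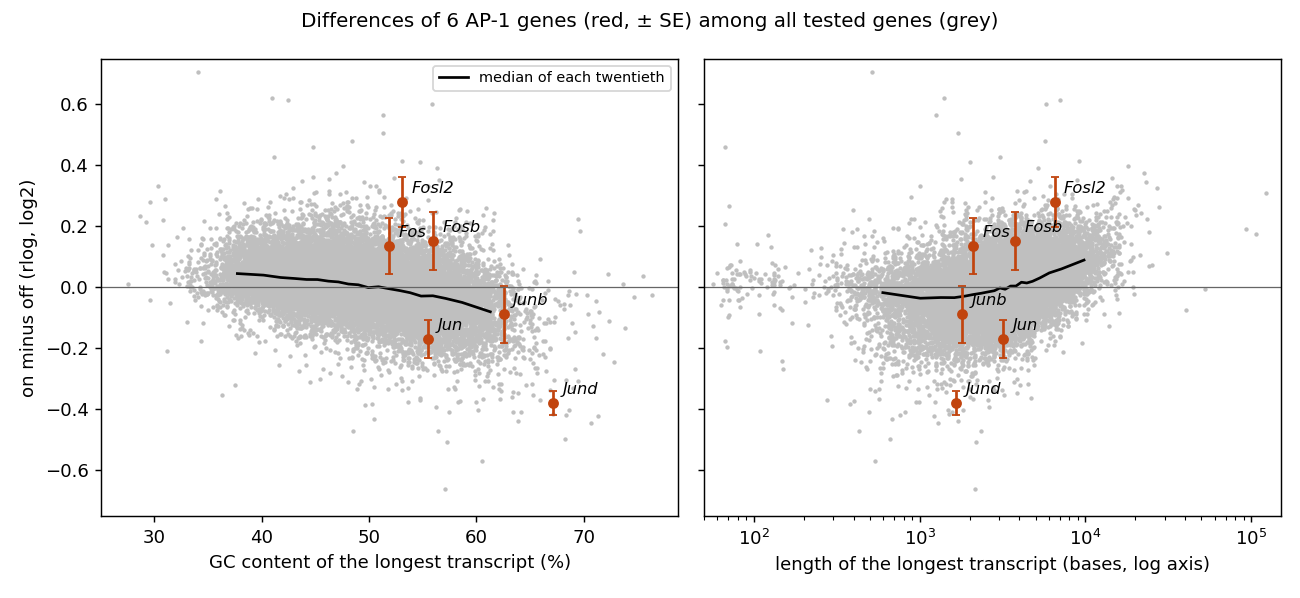
Difference between on and off (rlog, log2) of every tested gene (grey) against the GC content and the length (log axis) of its longest transcript; red points are 6 AP-1 genes ± SE and the black line joins the medians of equal-sized bins of genes. Jund, at 67.1% GC and 1668 bases, lies beyond the GC-rich end of the line, where the median is below 0, and Fosl2, at 6537 bases, where it is above 0.

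After the trend of each library with GC content and transcript length was removed, the difference of Jund was -0.12 ± 0.04 (SE), 32.7% of that before. Corrected values were 11.52, 11.65, 11.56 and 11.65 in on and 11.75, 11.66 and 11.74 in off. On libraries were still below off libraries, with on replicate 2 and off replicate 2 almost level, as were 8.02% of tested genes after the correction, and the other 5 members overlapped; 5.90% of tested genes had on libraries above off libraries, and 0.587% passed in limma. The correction took 0.10 to 0.19 from the off libraries and added 0.05 to 0.13 in the on libraries. Junb changed sign, from -0.09 to 0.07 ± 0.09 (SE). Fos (0.17), Fosb (0.17), Fosl2 (0.23) and Jun (-0.12) kept their signs. The part of this trend in the difference of Jund beyond these values was not tested.

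On replicate 1 bears on this trend. Its score on the first principal component, which held 47.7% of the variance, was -4.10; scores of the off group ran from -8.64 to -3.56 and those of on replicates 2 to 4 from 7.19 to 9.15. The median deviation of the 1007 short, GC-rich genes was 0.01 in on replicate 1. It ran from -0.07 to -0.04 over on replicates 2 to 4 and from 0.02 to 0.07 over the off group. Jund in on replicate 1, at 11.47, lay between on replicates 3 and 2. Without on replicate 1 the difference of Jund was -0.37, and -0.10 after the correction.

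**Figure D3:**
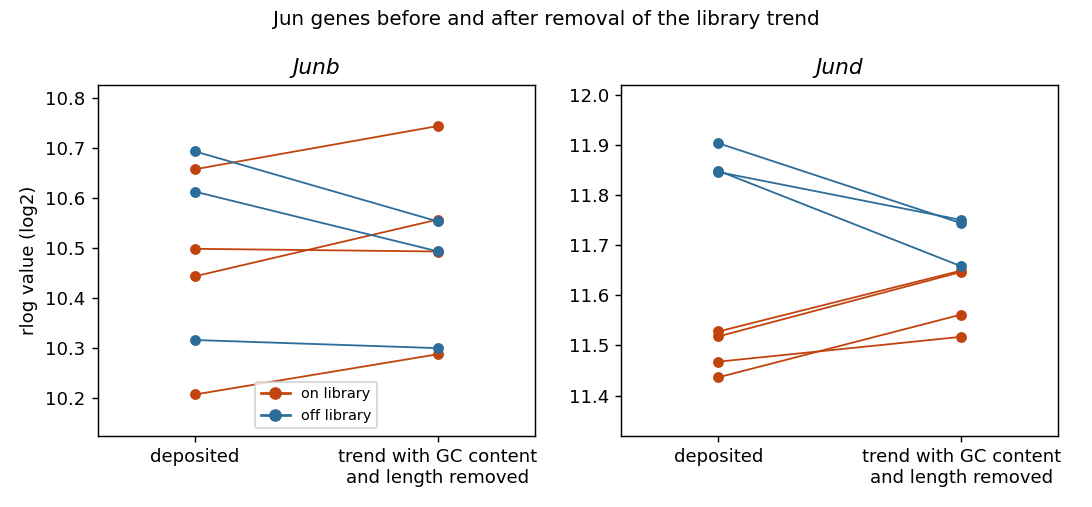
rlog values (log2) of Junb and Jund in each on (red) and off (blue) library, as deposited and after the GC and length correction; lines join the same library. The distance between the groups in Jund was 0.38 before and 0.12 after, and in Junb the sign changed.

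A list of 30 other transcription factor genes was drawn up as intronless or short and GC-rich. By their longest transcripts they ran from 1160 to 8311 bases and from 41.9% to 69.1% GC, with medians of 2706 bases and 56.1%, so that not all members of the list meet that description. Of these, 5 fell and none rose in limma, 25 did not pass, and the median difference was -0.11 against 0.00 for all tested genes. Of all tested genes 1.79% fell and 0.816% rose, and of the 1007 short, GC-rich genes 9.83% fell. Pou3f1, a POU factor, fell by 0.35 ± 0.06 (SE, adjusted p = 0.0116). Olig1, a factor of the oligodendrocyte lineage, fell by 0.28 ± 0.05 (SE, adjusted p = 0.0165), and Cebpb, itself a bZIP factor, fell by 0.42 ± 0.08 (SE, adjusted p = 0.025). Hes5, a target of Notch signalling, fell by 0.33 ± 0.07 (SE, adjusted p = 0.0348), and Olig2 is the other gene called. None of the 5 passed after the correction, where the list's median was -0.06 and 0 of 30 passed. Pou3f1 passed in 4 of the 7 limma fits without 1 library, Olig1 in 3, and Cebpb, Hes5 and Olig2 in 2 each.

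Within groups the members differed in how much they varied between libraries. The SD within groups was 0.19 for Fos, 0.19 for Fosb, 0.19 for Junb, 0.16 for Fosl2, 0.11 for Jun and 0.04 for Jund. The SD of Fos was above that of 99.3% of tested genes, and those of Fosb and Junb above 99.3% too. That of Jund was above 17.99% of tested genes and was the lowest of the 6 members tested. The rule that chose the family names only that Jund was low in on. A clear gap between groups also depends on a small spread within them, so the low SD of Jund may not be independent of the choice.

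The 3 tested Fos genes deviated from their group means in the same way in on replicates 1 and 4. Fos was 0.24 below its group mean in on replicate 1 and 0.26 above it in on replicate 4. Fosb (-0.27 and 0.27) and Fosl2 (-0.23 and 0.24) did the same. Jun and Junb were also high in on replicate 4, by 0.17 and 0.21, but were not low in on replicate 1, at 0.04 and 0.05. In off replicate 1 all 6 members were below their group mean, from -0.22 in Junb to -0.02 in Jund.

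**Figure D4:**
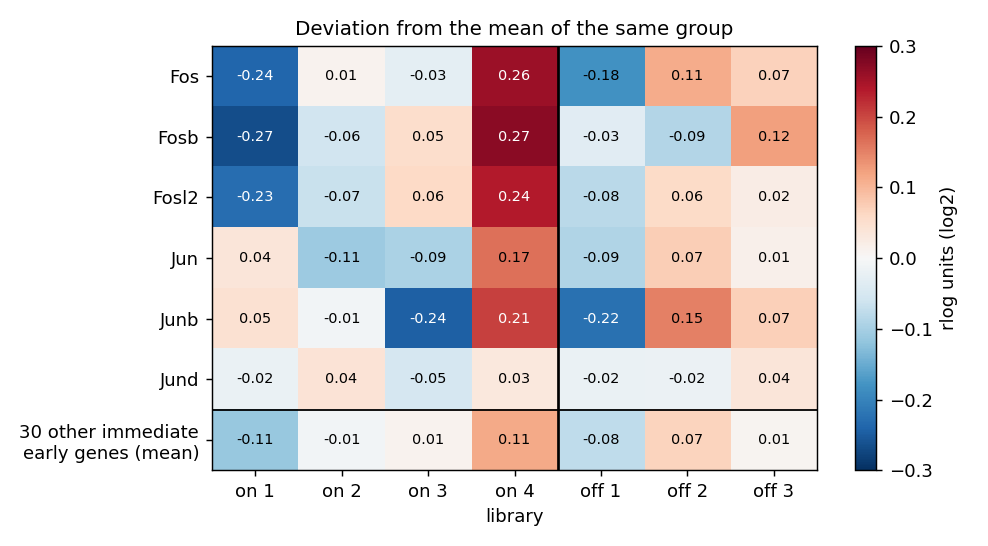
Deviation of 6 AP-1 genes from the mean of the same group (rlog, log2) in each library, and in the bottom row the mean over 30 other immediate early genes; red is above and blue below the group mean. On replicate 4 is above the mean of its group in every row and off replicate 1 below it, and on replicate 1 is low in Fos, Fosb and Fosl2.

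Over the 7 libraries, after removal of group means, all 15 pairs of these 6 members had a positive Pearson r, and 8 had one above 0.5. The closest pairs were Fos with Fosl2 (r = 0.91, Spearman's rho = 0.79), Fosb with Fosl2 (r = 0.89, rho = 0.68) and Jun with Junb (r = 0.86, rho = 0.86). Fos and Fosb had r = 0.78 (rho = 0.54). Without on replicate 4 these were 0.81, 0.74, 0.81 and 0.53, whereas 6 of the 15 pairs had a negative r. The lowest were Fosb with Jun, from 0.33 to -0.56, and Fosb with Junb, from 0.19 to -0.41. With group means left in, Fos and Fosl2 had r = 0.87 (rho = 0.86), and 0.46 without the 2 libraries farthest from the median of Fos, on replicate 4 and off replicate 1. These correlations are descriptions over 7 libraries that share depth and composition, with no test.

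Promoters of 4 members are shown for letters that resemble the sites that CREB and AP-1 proteins are known to bind; the window of Fosl2, which holds none of the motifs marked here, is not printed. Each is the 120 bases before the RefSeq start of the gene (GRCm38.p6), 5′ to 3′ on the strand of the gene, and capitals mark TGACG, TGACATCA and TATAAA.
Fos, chr12:85473770-85473889, plus strand: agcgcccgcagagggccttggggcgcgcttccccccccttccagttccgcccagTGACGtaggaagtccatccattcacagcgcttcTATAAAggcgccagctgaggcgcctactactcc
Fosb, chr7:19310046-19310165, minus strand: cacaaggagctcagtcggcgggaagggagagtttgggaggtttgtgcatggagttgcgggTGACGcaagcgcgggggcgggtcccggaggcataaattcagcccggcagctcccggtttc
Junb, chr8:84978749-84978868, minus strand: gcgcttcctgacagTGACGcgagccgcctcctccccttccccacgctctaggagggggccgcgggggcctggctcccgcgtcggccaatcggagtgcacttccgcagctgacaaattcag
Jun, chr4:95052223-95052342, minus strand: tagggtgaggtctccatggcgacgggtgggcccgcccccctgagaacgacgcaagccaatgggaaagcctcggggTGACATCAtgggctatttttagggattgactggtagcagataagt
RefSeq windows were found for 6 of the 7 members, all but Fosl1, and both strands of the 250 bases before the start were searched. TGACG, the first 5 letters of the full CRE TGACGTCA, was found in Fos at -129 and -66, in Fosb at -60 and in Junb at -106, counted from the start to the first base; 17.8% of all 32851 windows hold it. TGACATCA, a CRE-like element searched after the sequences were seen, was found in Jun at -45 and is held by 2.93% of windows. The full CRE (1.55% of windows), TGANTCA (6.75%) and the SRE (1.47%) were in none of the 6 windows. Sites more than 250 bases before the start were not searched, so a gene without a motif here may hold it farther upstream. GGGCGG, the GC box, was in Fos, Fosb, Fosl2 and Jun and in 32.7% of all windows, and TATAAA was in Fos alone and in 12.4%. The RefSeq start of Jund lies 1210 bases before its GENCODE start, so its window, in which none of these motifs was found, is not shown. The RefSeq start of Fosl2 lies 671 bases after its GENCODE start, so the window of Fosl2 lies inside the annotated gene and may not be its main promoter.

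Immediate early genes outside the family were tested as a list of 30. In limma 1 fell, none rose and 29 did not pass, against 1.79% of all tested genes that fell and 0.816% that rose. Of the list, 8 had an unadjusted p under 0.05, as had 20.7% of all tested genes. The median difference was 0.04 against 0.00 for all tested genes. Nptx2, a secreted pentraxin of excitatory synapses, fell by 0.24 ± 0.05 (SE, adjusted p = 0.0322) and passed in 2 of the 7 fits without 1 library. Nr4a3, an orphan nuclear receptor, had a difference of 0.48 ± 0.12 (SE, adjusted p = 0.0552), with 10.03, 10.19, 10.46 and 10.77 in on and 9.87, 9.99 and 9.78 in off. All 4 on libraries lay above the off libraries, as in 7.13% of tested genes. The kinase gene Sik1 differed by 0.22 ± 0.07 (SE, adjusted p = 0.106) and the Krüppel-like factor gene Klf4 by 0.26 ± 0.10 (SE, adjusted p = 0.169). Without on replicate 1, 8 of the list were called, 7 higher and 1 lower, in a fit that called 2916 of all 17896 genes.

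Within groups, the list varied as follows. Its mean deviation was -0.11 in on replicate 1, 0.11 in on replicate 4, -0.08 in off replicate 1 and 0.07 in off replicate 2. Of the 30 genes, 11 (36.7%) had r above 0.75 with Fos after removal of group means, against 3.18% of 17825 tested genes. With 1 library left out 9 to 15 of the 30 did, against 5.30% to 7.70% of tested genes. The tested genes most like Fos by this measure were Taok3 (r = 0.996), Gm26648 (0.993), Egr4 (0.990), Spry4 (0.990) and Gm42608 (0.987). Egr4 had values of 8.76, 9.04, 8.94 and 9.36 in on and of 8.89, 9.19 and 9.15 in off, the same order of libraries as Fos within each group. Singled out after their values were seen, Egr1 had r = 0.97, Trib1 0.93, Nr4a1 0.92 and Per1 0.91. The median r over the 30 genes was 0.58, and Klf6 (-0.71), Zfp36 (-0.12) and Rheb (-0.10) had a negative r.

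Markers of other cell types also varied within groups. The mean deviation of the 7 markers of brain endothelium and mural cells from their group mean was -0.25 in on replicate 1, against 0.06 to 0.11 over on replicates 2 to 4. It was -0.15 in off replicate 2, against 0.07 and 0.08 in off replicates 1 and 3. Log2 of their summed level ran from 13.00 to 13.42 in on and from 13.04 to 13.27 in off. They were low with Fos in on replicate 1, and opposite to it in off replicates 1 and 2. Oligodendrocyte markers (0.13 in on replicate 1 and -0.10 in on replicate 4) and microglial markers (0.10 and -0.08) ran opposite to Fos in these on libraries. In off replicate 1 both lists were low with Fos, at -0.08 and -0.07. They were at 0.005 and 0.08 in off replicate 2, and at 0.08 and -0.01 in off replicate 3. The 5 blood markers ranged from -0.21 to 0.26 over the 7 libraries. The part of these markers in the variation of the Fos genes was not tested.

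Jund and Fos had r = 0.52 (rho = 0.54) within groups, and 0.36 without on replicate 4. The tested genes most like Jund after removal of group means were Zfp750 (r = 0.994), Gm12932 (0.989), Etv3 (0.984), Usp2 (0.979) and Gm26902 (0.962). Of tested genes 1.76% had r above 0.75 with Jund, and of the 30 immediate early genes 0 did, from which nothing is read at that share. The deviations of Jund that these values rest on were at most 0.05.

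Partners of AP-1 showed no call. Of 14 listed bZIP partners 12 were tested and 0 passed in limma, with 2 at an unadjusted p under 0.05 and a median difference of -0.04. Atf7 differed by 0.17 ± 0.06 (SE, adjusted p = 0.126), Nfe2l2, which encodes NRF2, by 0.09 and Atf2, a JNK substrate, by 0.06. Batf and Batf2 had means under 3. Among 15 genes whose proteins bind AP-1 proteins or set their stability, 0 passed and 2 had an unadjusted p under 0.05. Of all tested genes 20.7% had an unadjusted p under 0.05. Of these 15, Cops5 differed by -0.09, Itch, a ubiquitin ligase of Jun proteins, by 0.09 and Ncoa1 by 0.07.

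Upstream of the family, kinase genes gave 3 calls. Of 27 genes of the JNK, ERK and p38 pathways, 3 fell, none rose and 24 did not pass in limma, with a median of -0.01; of all tested genes 1.79% fell and 0.816% rose. Map2k2, an ERK kinase, fell by 0.25 ± 0.04 (SE, adjusted p = 0.0145), with values of 11.05, 10.96, 10.94 and 10.91 in on and of 11.14, 11.25 and 11.26 in off. Map2k1 fell by 0.17 ± 0.04 (SE, adjusted p = 0.0461) and Map3k10, a mixed-lineage kinase of the JNK pathway, by 0.20 ± 0.05 (SE, adjusted p = 0.0491). The JNK scaffold gene Mapk8ip1 differed by -0.17 ± 0.05 (SE, adjusted p = 0.106). Of the 7 limma fits without 1 library, Map2k2 passed in 3, Map3k10 in 2 and Map2k1 in 1, and none of the 3 passed after the GC and length correction. Among 18 factors and coactivators of CRE, SRE and MEF2 sites, 17 were tested and 0 passed in limma, with a median of 0.03. Of the 17, 7 had an unadjusted p under 0.05, against 20.7% of all tested genes. Ep300, an acetyltransferase, differed by 0.14 ± 0.04 (SE, adjusted p = 0.100) and Mrtfb, a coactivator of SRF, by 0.12 ± 0.04 (adjusted p = 0.113). Srf differed by -0.11 ± 0.04 (adjusted p = 0.138) and Creb1 by 0.14 ± 0.05 (adjusted p = 0.143). After the GC and length correction the differences of Ep300, Mrtfb, Srf and Creb1 were 0.06, 0.05, 0.03 and 0.05, so that of Srf changed sign.

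Of 27 genes known as AP-1 targets, 24 were tested, 2 fell, none rose and 22 did not pass in limma, with a median of -0.03. Of all tested genes 1.79% fell and 0.816% rose. Cdk5, a neuronal kinase gene known as a target of FosB, fell by 0.18 ± 0.04 (SE, adjusted p = 0.025). Its values were 11.57, 11.47, 11.49 and 11.47 in on and 11.69, 11.67 and 11.70 in off, and the groups did not overlap. On libraries lay below off libraries in 8.09% of tested genes. Txn1, which encodes thioredoxin, fell by 0.17 ± 0.04 (SE, adjusted p = 0.0486). The opioid precursor gene Penk differed by -0.17 ± 0.06 (SE, adjusted p = 0.12) and the metallothionein gene Mt1 by -0.19 ± 0.07 (SE, adjusted p = 0.132). Cdk5 and Txn1 each passed in 1 of the 7 fits without 1 library, and neither passed after the correction.

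The tissue label was met by markers of neurons, glia and vessels. Mean rlog values in on and off were 16.38 and 16.44 for Snap25, 12.93 and 13.01 for Rbfox3, 13.69 and 13.73 for Gfap, 17.08 and 17.13 for Mbp, 10.62 and 10.70 for Cx3cr1, and 9.50 and 9.66 for Cldn5. The blood gene Hba-a1 had 5.43 and 5.51, Ttr of the choroid plexus 14.68 and 14.73, and the liver gene Alb was near 0, at -0.17 in both. Alb was 1 of 6 liver and muscle genes listed as those that should be absent, of which 3 had means under 3. The other 3 did not: Acta1 had 6.97 in on and 7.14 in off, Apoa2 4.36 and 4.38, and Myh1 4.00 and 4.05. Of 10 marker lists, 9 had 0 genes called in limma, with 0 to 3 genes each at an unadjusted p under 0.05, against 20.7% of all tested genes. In the list for olfactory sensory neurons and bulb, 4 of 8 genes were called lower in on, against 1.79% of all tested genes. Among them was Omp at 6.70 against 7.36 (difference -0.66 ± 0.11, SE, adjusted p = 0.00839). Log2 of the summed level of the 8 ran from 12.71 to 12.94 in on and from 12.93 to 13.01 in off. With group means left in, 5 of the 8 had r above 0.75 with Jund over the 7 libraries, as had 7.30% of tested genes. Jund was chosen for its gap between the groups, so genes lower in on resemble it by this measure. Nothing is therefore read from this count. The part of the olfactory and bulb markers in the difference of Jund was not tested. In bulk tissue fewer cells of a type and less RNA per cell cannot be told apart.

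The antisense gene Gm11175, inside Jund, was lower in on, as Jund was. Its values were 6.14, 6.20, 6.30 and 6.18 in on and 6.47, 6.41 and 6.39 in off, and it fell by 0.22 ± 0.05 (SE, adjusted p = 0.0479). Within groups it did not follow Jund, since on replicate 3 was its highest on library and the lowest of Jund, and off replicate 3 its lowest off library and the highest of Jund. It was looked at after the overlap was seen. Its span lies wholly within the single exon of Jund, and its mean was 6.30, against 11.65 for Jund. Reads of Jund may therefore be part of its value. Neither that part nor its own part in the value of Jund was tested. Of the partners of the other Jun genes, Junos differed by -0.02 ± 0.05 (SE, adjusted p = 0.867) and Prdx2 by -0.10 ± 0.05 (SE, adjusted p = 0.272), and Ccdc85b, opposite Fosl1, fell by 0.36 ± 0.05 (SE, adjusted p = 0.00301, limma).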

How the data were processed

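Brain RNA was sequenced in 4 on and 3 off libraries with the Illumina TruSeq Stranded mRNA kit, per the labels. The authors deposited log2 values (rlog). DESeq2 1.16.1, Subread 1.5.3 and STAR 2.5.2 are among the tools that the submitters' processing notes list, without roles, beside the build GRCm38. Counts were not used here, so the depth is unknown and precision rests on the spread between libraries. No 2 libraries held identical values.

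The 17896 genes with a mean of 3 or more entered limma 3.58.1 (R 4.3.3; group term, intensity trend, two-sided, Benjamini-Hochberg over all genes, threshold 0.05). Length and GC content came from the longest GENCODE M21 transcript, for 99.6% of tested genes, and mgcv 1.9.3 was used to remove their trends from each library, separately for 3 classes of gene level. The fit and the correction were tested on simulated data with independent noise. Of 50 changes of 0.2 log2 units 26% were recovered, and of 50 changes of 0.4, 98%. Small changes in lists without a call may therefore have been missed. A simulated trend with length gave 3780 false calls before the correction and 8 after. No trend with GC content was simulated, so the removal of such a trend was not tested.

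Members and lists were chosen with earlier results of these data known. Named were the members, the 4 genes of smallest p in each pathway list, the 5 genes most like Jund or Fos by Pearson r, and fixed markers; some genes that this rule names are left out. Of the listed genes, 4 were matched through RefSeq synonyms. Alternatives were other filters, scalings and variance priors, a replicate block, the correction, and each library left out.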

Additional observations from a re-analysis of the deposited data

Results flagged for a closer look

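Omp, the olfactory marker, was at 6.938 in on replicate 4 against 6.60 to 6.64 in on replicates 1 to 3, a gap that a test for outlying samples singled out. It was the only one among 44 values looked at, members, named pathway genes and markers; the test is passed by chance in about 1 of 20 groups, or about 2.2 of 44. On replicate 4 was also the highest on library in Fos, Fosb, Fosl2, Jun and Junb, without passing this test in any of them.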

How the results depend on the processing

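Among the members, Jund stayed between -0.39 and -0.36 under the filters, scalings and priors tried, the replicate block and each library left out, and lay between -0.14 and -0.10 under the 3 settings with the GC and length correction. Junb changed sign with the correction (0.07) and with it and without on replicate 1 (0.08), and none of the other 5 members tested changed sign in the 17 alternatives; Fosl1 was fitted with no filter only.

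The number of all genes called, 466, was 8 with no filter, 237 without the intensity trend, 105 with the correction, 1799 with it and without on replicate 1, and between 43 (without off replicate 2) and 2916 (without on replicate 1) with 1 library left out. Of the kinase, immediate early, target and short GC-rich lists (3, 1, 2 and 5 calls), 0 were called with no filter and 0 with the correction. Without the trend the first 3 of these had 1, 0 and 1, and with quantile normalization the targets had 1. With the correction and without on replicate 1, calls were 2 for partners, 2 for CREB, SRF and MEF2 factors, 8 for kinases, 1 for binding and turnover, 10 for immediate early genes and 3 for the short GC-rich list. With 1 library left out they ran from 0 to 2, 0 to 5, 0 to 7, 0 to 2, 0 to 8 and 0 to 9 in the same order, and from 0 to 6 for targets, each highest without on replicate 1. The causes were not tested.

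Replicate numbers are shared by the groups, but same-numbered libraries did not deviate together (r = -0.23, -0.10 and 0.02). With the replicate block 30 genes were called, 2 with the correction as well, and 0 in each list under both; on replicate 4 has no partner and drops out of that fit. Depth is unknown, so what it limits was not measured.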

Other observations

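With group means left in, the 5 tested genes with the highest Pearson r to Jund over the 7 libraries were Gm9843 (0.987), Rps13-ps2 (0.986), Tmem158 (0.985), Usp2 (0.984) and Rpl31-ps8 (0.984). Jund was chosen for its gap between the groups, so this measure mostly picks genes with a like gap, and nothing is read from it. Tmem158, a membrane protein gene with a transcript of 1712 bases and 63.8% GC, had values of 9.80, 9.85, 9.69 and 9.82 in on and of 10.18, 10.28 and 10.22 in off. Rps13-ps2 and Rpl31-ps8 are named as pseudogenes of ribosomal protein genes and had low means of 3.10 and 3.81, so reads shared with their parent genes make these values uncertain. Usp2, which encodes a ubiquitin peptidase, was among the 5 both with and without group means, with values of 10.87, 10.92, 10.85 and 10.92 in on and of 11.04, 11.03 and 11.09 in off.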
